A study of Mus musculus with 2 samples.

Results

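Among 14348 barcodes that passed the quality limits of 1 single-cell RNA sequencing library of newborn mouse liver and heart, 147 carried the transcripts of 2 neutrophil granule proteins together, Ngp (neutrophilic granule protein) and Camp (the cathelicidin antimicrobial peptide). The quality limits were more than 2000 and fewer than 75000 gene UMIs (unique molecular identifiers, each standing for 1 captured transcript), more than 500 genes, and mitochondrial and haemoglobin shares below 5% each. A barcode was chosen by at least 5 Ngp UMIs and 5 Camp UMIs, no UMI of the endothelial gene Cdh5 and fewer than 3 UMIs of the macrophage gene C1qa, with any hashtag. The barcodes were therefore selected on the counts that are described here, and the levels of their genes are a description with no test.

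The library pooled cells of C57BL/6 pups from 6 hashtagged groups, which were liver and heart of Control, of Cdh5-CreERT2 with iSuRe-Cre and of Cdh5-CreERT2 with iSuRe-HadCre. The iSuRe-Cre allele couples a membrane Tomato reporter to permanent expression of Cre. By the paper, iSuRe-HadCre makes Cre only for a time, and its Tomato reporter comes on as the Cre gene is removed. Cdh5-CreERT2 is a tamoxifen-inducible Cre driven by an endothelial promoter, so that neutrophils are not the cells it is meant to recombine. All groups came from animals given 4-hydroxytamoxifen at 40 mg/kg on postnatal day 3, with tissues collected 3 days later, at P6-P7. The labels call the cells endothelial, and describe red blood cell lysis, CD31 staining and sorting by Tomato signal. From single-cell RNA sequencing of liver and heart endothelial cells, the paper reports that Notch1 was deleted and its mRNA lost with iSuRe-Cre or iSuRe-HadCre. The genotype of Control and the number of pups per group are not given in the sources used here, and each group was 1 hashtagged sample within 1 library. No group had a replicate, so no p-value is given, and all intervals are exact 95% intervals that cover counting error only.

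Neutrophils mature through promyelocyte, myelocyte, metamyelocyte and band stages, and pack their granules in that order. Primary granule proteins such as myeloperoxidase (Mpo) and neutrophil elastase (Elane) are made first. Secondary granule proteins such as lactoferrin (Ltf), lipocalin 2 (Lcn2), Camp and Ngp are made next under the factor Cebpe, while cells leave the cell cycle. Gelatinase (Mmp9) and receptors of mature cells such as Cxcr2 come last. In the first days after birth the mouse liver still makes blood cells, granulocytes included.

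Ngp, Camp and Ltf lie on mouse chromosome 9, Camp at 9:109847379-109849617 on the minus strand, Ngp at 9:110419747-110423012 and Ltf at 9:111019271-111042767, both on the plus strand (GRCm38, GENCODE M21). Upstream sequence of these genes, whose transcripts set the members apart, is shown from RefSeq's promoter table for GRCm38.p6, 5′ to 3′ on each gene's strand. Of the 250 bases before the RefSeq start, those inside the longer GENCODE gene were left off. The windows are chr9:110419558-110419746 for Ngp (189 bases), chr9:109849618-109849706 for Camp (89 bases) and chr9:111019042-111019270 for Ltf (229 bases). Capitals mark matches to TTGCNNAA on either strand, the letters of a C/EBP binding motif.
Ngp: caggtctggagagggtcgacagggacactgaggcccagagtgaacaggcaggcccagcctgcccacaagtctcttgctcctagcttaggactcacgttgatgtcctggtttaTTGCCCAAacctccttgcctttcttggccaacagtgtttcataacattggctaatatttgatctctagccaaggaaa
Camp: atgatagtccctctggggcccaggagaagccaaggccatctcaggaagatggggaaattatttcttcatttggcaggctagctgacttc
Ltf: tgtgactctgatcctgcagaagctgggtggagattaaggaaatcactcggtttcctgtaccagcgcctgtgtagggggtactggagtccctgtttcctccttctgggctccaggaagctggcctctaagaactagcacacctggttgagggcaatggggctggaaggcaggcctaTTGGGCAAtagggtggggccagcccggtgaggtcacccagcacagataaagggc
Over the whole windows of 250 bases, TTGCNNAA lay 138 to 131 and again 11 to 4 bases before the RefSeq start of Ngp, 75 to 68 before that of Ltf and 216 to 209 before that of Lcn2. It was not in the window of Camp. The match of Ngp at 11 to 4 bases lay in the bases left off, inside the GENCODE gene. The whole window of Lcn2 also lay inside its GENCODE gene. Of the 11 secondary granule genes with a promoter entry, 5 held it, as did 9.56% of all 32851 promoters. GAGGAA, letters of a PU.1 (Spi1) motif, was in 7 of the 11 and in 23.3% of all promoters, with both strands searched, and no match of it overlapped TTGCNNAA in Ngp, Camp, Ltf or Lcn2. A match is a description of these letters and not a binding site.

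The 147 barcodes spanned a wide range of neutrophil content. The calgranulins S100a8 and S100a9, the calcium-binding proteins that fill neutrophil cytoplasm, made up 0.275% to 35.6% of a barcode's gene UMIs, with a median of 4.56%. In 71 barcodes the share was 5% or more, and these are called S100-high. In the other 76, called S100-low, it was below 5%. No empty gap lay at 5%, but barcodes were sparse just above it. There were 10 from 3% to 4%, 9 from 4% to 5%, 2 from 5% to 6%, 2 from 6% to 8% and 5 from 8% to 10%. The limit divided a range and did not define a cell type. At the ends, 51 barcodes had 20% or more and 22 had less than 1%.

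In the S100-high barcodes Ngp ranged from 6 to 914 UMIs with a median of 316, and Camp from 13 to 1137 with a median of 300. Their depth was 2031 to 73440 gene UMIs with a median of 10481, 835461 in all. In the S100-low barcodes Ngp ranged from 5 to 36 UMIs with a median of 13, and Camp from 5 to 51 with a median of 9. Their depth was 2028 to 9750 gene UMIs with a median of 4415.5, 364054 in all. S100-low barcodes therefore lay near the limit of the rule. All 55 barcodes with at least 50 UMIs of both genes were S100-high, against 16 of the 92 with fewer.

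At the limit itself, the 11 barcodes whose lower count of the 2 genes was 5 had a median S100 share of 1.13%. The 12 barcodes that missed by 1 UMI, with a lower count of 4, had a median of 1.39%. The values on the 2 sides of the limit overlapped, from 0.275% to 4.20% inside and from 0.617% to 2.60% outside. A further 166 passing barcodes met both minimums but held a Cdh5 UMI, and 1 had 3 or more C1qa UMIs. Of the passing barcodes that are no members, 48 had an S100 share of 5% or more, and 31 of these had at least 5 UMIs of both genes.

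**Figure D1:**
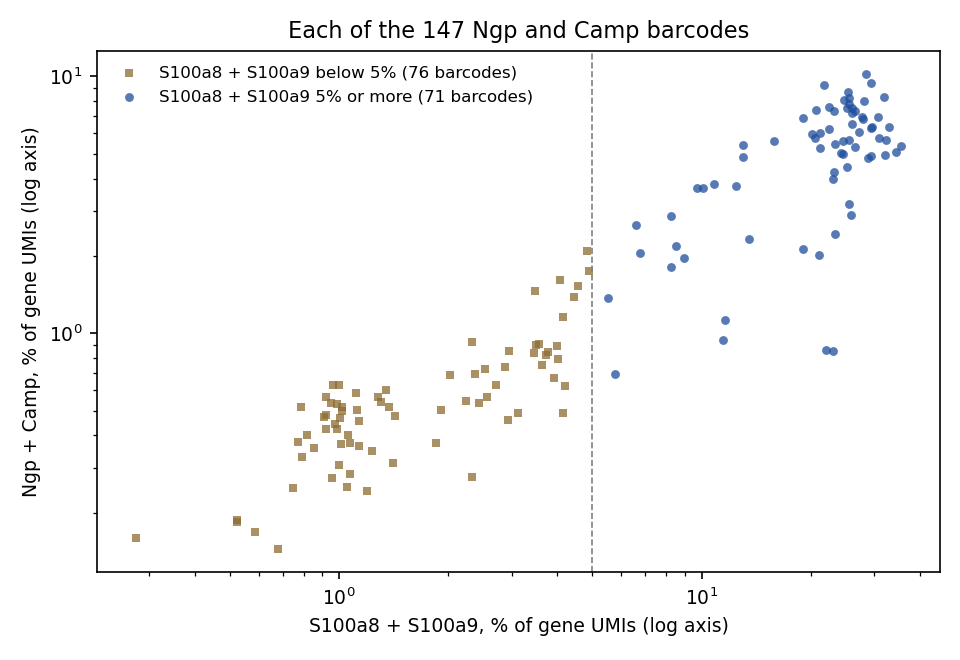
Share of gene UMIs in S100a8 and S100a9 (x axis, percent, log axis) against the share in Ngp and Camp (y axis, percent, log axis), 1 point per barcode for the 71 S100-high (circles) and 76 S100-low (squares) barcodes; the dashed line is the 5% limit. The 2 shares rise together, with 9 barcodes from 4% to 5% and 2 from 5% to 6% on the x axis.

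Calgranulin and secondary granule genes were high and endothelial and fibroblast genes low in the S100-high barcodes, whereas the S100-low ones went against the label of neutrophil-lineage cells. In CPM (UMIs per 1000000 gene UMIs of the summed barcodes), S100a8 was at 112351 in S100-high, 8062 in S100-low and 575.2 in the other 14201 passing barcodes. Ltf was at 5184, 395.5 and 17.6 CPM. The others included the 166 barcodes that met both minimums but held a Cdh5 UMI, and these held 2115 of the 2484 Ltf UMIs of the others. Pecam1, which encodes the CD31 of the sort, was at 18 CPM in S100-high, 126.4 in S100-low and 260.4 in the others. The 10 endothelial genes, Cdh5 of the rule among them, were summed at 131.7 CPM in S100-high, 1148 in S100-low and 2091 in the others, and the cell median was 55.8 CPM in S100-high and 1001 in S100-low. The 6 fibroblast genes were at a cell median of 0 CPM in S100-high and 959.3 in S100-low. The S100-low barcodes thus held neutrophil, endothelial and fibroblast transcripts side by side, and are described below by their rule alone.

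Erythrocyte transcripts also moved with the split. Haemoglobin genes made up a median of 0.154% of UMIs in S100-high and 2.88% in S100-low barcodes, and mitochondrial genes a median of 0.732% and 1.98%. The haemoglobin limit left out 80 barcodes that met every other part of the rule, of which 63 had an S100 share below 5% and 17 had more. Free RNA, taken from 24194 barcodes of 10 to 100 gene UMIs, held Hbb-bs at 28194 CPM, S100a8 at 725, Camp at 200.5 and Ngp at 160.4. By the level of hepatocyte genes relative to that profile, free RNA was estimated at 14.0% of the S100-high and 36.3% of the S100-low UMIs. By globin genes the estimates were 3.86% and 45.4%. The S100a8 level of the S100-low barcodes was above that of free RNA, and the part of free RNA or of joined cells in these barcodes was not tested.

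The ratios among neutrophil transcripts in the S100-low barcodes lay near those of the S100-high ones for some genes and apart for others. S100a9 stood at 1.17 UMIs per S100a8 UMI in S100-low, 1.05 in S100-high and 1.05 in free RNA. Ltf, the iron-binding lactoferrin, stood at 0.0491, 0.0461 and 0.0359. Ngp, which the rule used, stood at 0.373, 0.235 and 0.221. Lyz2, the lysozyme of macrophages and granulocytes, stood at 0.113, 0.0582 and 0.141. The 15 genes with the highest ratio of S100-low to S100-high included genes of other tissues. Among them were Sox9, a factor of duct and cartilage cells, with 81 UMIs against 0, Ccl21a, a chemokine of lymphatic endothelium, with 76 against 0, and the fibroblast collagen Col1a1 with 189 against 11. These genes were picked by that ratio after their values were seen.

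Over all 147 members, 351 of 13879 genes with enough UMIs were at least 4-fold higher than in the other passing barcodes (2.53%), and 1199 of 9663 at least 4-fold lower (12.4%). For the S100-high barcodes alone, 427 of 13875 were higher (3.08%) and 2735 of 8489 lower (32.2%). For the S100-low barcodes, 685 of 13857 were higher (4.94%) and 92 of 5371 lower (1.71%). The 15 genes with the highest ratio over all members were Chil3 (238), Ltf (212), Itgb2l (209), Camp (208), Ngp (204), Cd177 (202), Lcn2 (189), Stfa2l1 (182), Stfa2 (178), Wfdc21 (170), Stfa3 (167), Ly6g (165), Csta2 (165), Cstdc4 (159) and S100a9 (155), each as a ratio of CPM. Granule proteins and stefins, which inhibit cysteine proteases, made up most of them. The others are not free of such barcodes. With all that had 5 UMIs of both Ngp and Camp left out of them, the ratio was 1525 for Ltf, 744 for Lcn2 and 349 for S100a9. Because the members were chosen by Ngp and Camp, none of these ratios is a test.

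All 11 secondary granule genes with enough UMIs were at least 4-fold higher in the S100-high barcodes, with a median ratio of 259, beside a median of 0.511 over all genes. Ltf had 1 to 165 UMIs per barcode, with a median of 65, and was present in 71 of 71. The ratio of its summed level to that of the others was 294.5 (280.3 to 309.5). Lcn2, which withholds iron siderophores from bacteria, was at 9678 CPM against 37.4 in the others. Chil3, a chitinase-like protein of neutrophils and macrophages, was at 1406 CPM against 4.18. The collagenase Mmp8 was at 519.5 CPM against 3.27, and the peptidoglycan receptor Pglyrp1 at 2210 against 16.9. In the S100-low barcodes 10 of 11 were past 4-fold, with a median ratio of 16.8.

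Most of these genes were not found in every S100-high barcode. Chil3 was detected in 53 of 71, Mmp8 in 40, Fcnb in 38 and Olfm4 in 25. Olfm4, a secondary granule protein known to mark a subset of neutrophils, had 751 UMIs, of which 152 were in 1 barcode and 75.5% in the 10 highest. After thinning each barcode to 2000 UMIs, Ltf was expected in 97.4% of S100-high and 0.0589% of Alb-high barcodes, hepatocyte-like barcodes with 50 or more Alb UMIs (138 barcodes, median 13835 gene UMIs). Unthinned, the Ltf shares were 100% and 1.45%. Chil3 was at 63.2% and 0.0252% after thinning, and 74.6% and 0.725% before it. Cebpe, the factor of secondary granule genes, was at 51.5% and 0.167%, and 84.5% and 0.725% before thinning.

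The stefins form 1 cluster on chromosome 16, from Stfa2l1 at 16:36156811-36161953 to Stfa3 at 16:36450537-36455392 (GRCm38). All 4 stefins of the fixed list were at least 4-fold higher in S100-high barcodes, with a median ratio of 240.0. Stfa1 was at 55545 CPM against 277.2 in the others, Stfa2 at 11233 against 45.3, Stfa3 at 12233 against 52.7 and Stfa2l1 at 14548 against 57.3. The neighbouring Cstdc5, listed in older annotation as BC100530, was at 41562 CPM and Cstdc6, listed as BC117090, at 180.7. These genes are near-identical copies, so the authors' counting could split or drop reads among them, and their separate levels are uncertain. Stfa1 was also at 5389 CPM in 45 barcodes with at least 10 Mpo UMIs and no Cdh5, whereas Stfa2 was at 4.04 there.

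Primary granule transcripts were few in the S100-high barcodes, or sat in 1 of them. Mpo had 1 UMI in 835461 (1.20 CPM), against 33.2 CPM in the other barcodes. Ctsg, the cathepsin G gene, also had 1 UMI. Elane had 48 UMIs, of which 47 were in 1 barcode. That barcode also held 61 of the 72 Prtn3 (proteinase 3) UMIs, with 298 Ngp, 654 Camp, 4 Ltf and 0 Retnlg UMIs among 18178. Prss57, a serine protease of the same granules, was more evenly spread, with 19 UMIs in 12 barcodes, and was 11.1 (6.59 to 17.7) times its level in the others. Summed over the 45 Mpo barcodes, Camp was at 545 CPM and Ngp at 0.807 CPM. The Camp level rested on few of them, since the median and upper quartile were 0 UMIs and 1 barcode held 381 of the 675.

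**Figure D2:**
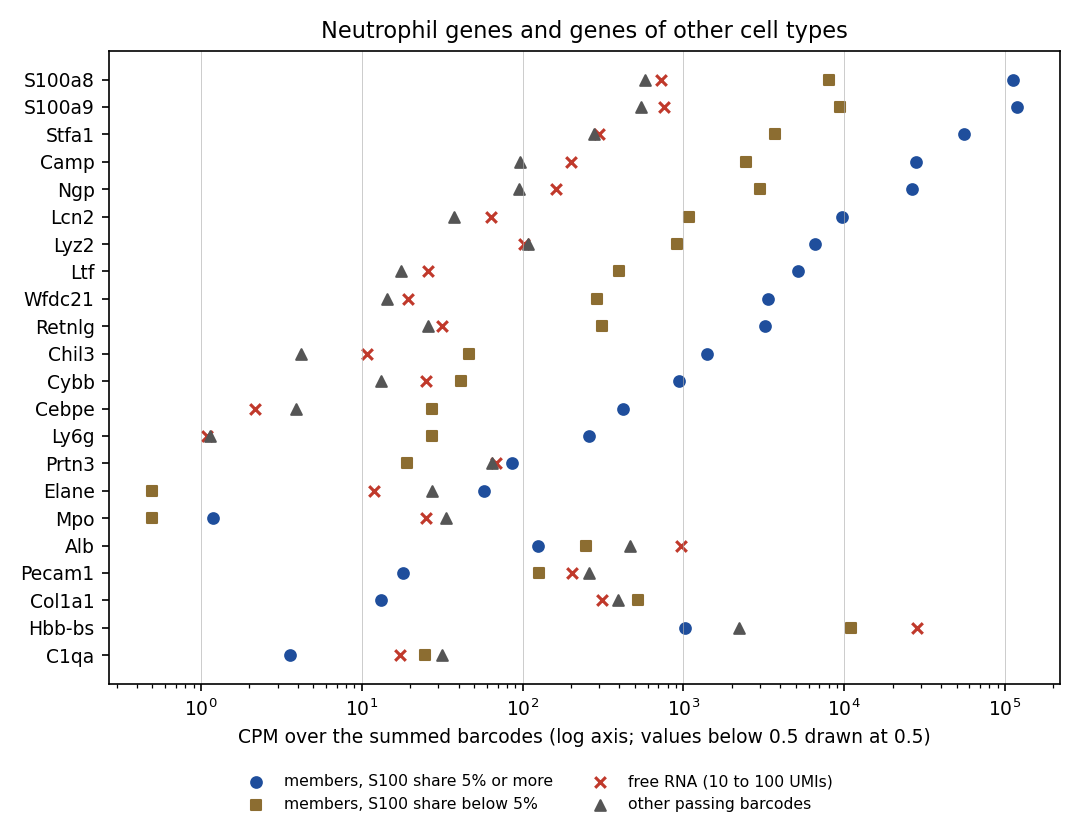
CPM over summed barcodes (x axis, log axis, values below 0.5 drawn at 0.5) of named genes (y axis) in S100-high members (circles), S100-low members (squares), free RNA (crosses) and the other passing barcodes (triangles). S100a8 to Ly6g lie furthest right in S100-high members and between the S100-high members and the others in S100-low members, whereas Pecam1, Col1a1 and Hbb-bs are lowest in S100-high members.

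Of 14 late neutrophil genes with enough UMIs, 13 were at least 4-fold higher in S100-high barcodes, with a median ratio of 33.4. Retnlg, a resistin-like secreted protein, was at 3210 CPM against 25.7 in the others, and its count per barcode ran from 0 to 318 with a median of 4. Its 10 highest barcodes held 72.9% of its UMIs, so that its level differed widely between barcodes. Cxcr2, the receptor by which neutrophils leave the marrow, was at 93.4 CPM against 1.22 and was detected in 37 of 71. The gelatinase Mmp9 was at 275.3 CPM against 2.40, and the formyl peptide receptors Fpr1 and Fpr2 were at 116.1 and 142.4. Il1b was the member of the list below 4-fold, at 3.15 (2.28 to 4.24), with 44 UMIs in 8 barcodes.

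The receptor and factor lists held both directions. Of 15 surface and cytokine receptors, 13 were past 4-fold higher with a median ratio of 28.2. Ly6g, the classical mouse neutrophil antigen, was at 257.3 CPM against 1.13, and the integrin Itgam (CD11b) at 205.9 against 2.82. Pecam1 was the gene of this list past 4-fold lower, at 0.069 (0.0386 to 0.114), with 15 UMIs in 13 of 71 barcodes. Csf1r, the macrophage colony-stimulating factor receptor, had 4 UMIs. Of 9 transcription factors, Cebpe was at 107.8 (94.1 to 123.4) times the others and Spi1 (PU.1) at 15.7 (13.8 to 17.8). Cebpa, which acts at the earlier progenitor stage, had 1 UMI and Gfi1 had 0, which allows up to 3 UMIs in 835461. Klf4 and Irf8, factors of endothelial and monocytic cells, were past 4-fold lower, 2 of the 6 that could be counted as lower. Over all genes this was 32.2%.

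Cybb, Cyba, Ncf1 and Ncf4, genes of the phagocyte NADPH oxidase that makes superoxide, were also past 4-fold higher in S100-high barcodes. The catalytic subunit Cybb was at 944.4 CPM against 13.1 in the others and its partner Cyba at 1657 against 219.6. Ncf1 was at 345.9 CPM and Ncf4 at 409.4, which were 48.8 (42.6 to 55.6) and 41.8 (37.1 to 47.1) times their levels in the others. Of 5 other antimicrobial genes, 4 were past 4-fold, among them Wfdc21 at 3365 CPM against 14.3 and the annexin Anxa1 at 3897 against 71.8. The lysosomal Cd63 was at 0.75 times the others. Activation cytokines were mixed. Osm and Tnf were past 4-fold higher, Ccl4 past 4-fold lower, and 48 of the 81 UMIs of the chemokine Cxcl2 were in 1 barcode.

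Markers of other blood cells were mixed in S100-high barcodes. None of the 6 progenitor genes with enough UMIs was past 4-fold higher. All 5 that could be counted as lower were past 4-fold lower, beside 32.2% of all genes. Kit, the stem cell factor receptor, was at 8.38 CPM against 60 in the others. Macrophage genes were summed at 64.6 CPM against 179.8 in the others and 4968 in 216 barcodes with 3 or more C1qa UMIs, whereby C1qa itself had been used by the rule. The 6 monocyte genes were summed at 355.5 CPM against 86.9 in the others, of which Ly6c2, which neutrophils also express, made up 335.1 against 6.55. Of the monocyte genes Ccr2 had 0 UMIs. The 8 eosinophil genes were summed at 69.4 CPM against 3.31, of which Ear2 made up 64.6 against 1.06, in 25 of 71 barcodes, while Prg2 and Epx, the main eosinophil granule proteins, had 0. The 9 erythroid genes had a median ratio of 0.449 in S100-high and of 4.89 in S100-low barcodes, where 6 were past 4-fold higher.

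S100-high barcodes ranged from no cell cycle UMI at all to a high share. The share of UMIs in 46 genes of S phase and of G2 and M phase was 0 in 5 of the 71 and reached 1.26%, with a median of 0.158%. Mki67, the proliferation antigen, was detected in 30 barcodes and Top2a in 31. Thinned to 2000 UMIs, Mki67 was expected in 24.2% of S100-high and 15.6% of Alb-high barcodes, from 42.3% and 60.9% unthinned. None of the 25 G2 and M genes was past 4-fold in either direction, with a median ratio of 1.35. Of the 21 S phase genes 3 were past 4-fold lower, beside 32.2% of all genes. The S100-high barcodes were ranked by the share of cell cycle UMIs into groups of 24, 24 and 23. The lowest group had shares up to 0.0298% and the highest had at least 0.428%, and their median depths were 9876.5 and 16865 gene UMIs.

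Along this ranking, the granule genes went in different directions. Chil3 was at 570.0 CPM in the group with the lowest cycle share, 679.3 in the middle and 2287 in the highest, a ratio of 4.01 (3.35 to 4.83). Fcnb, a ficolin of immature neutrophils, was at 241.9, 542.4 and 641.6 CPM, a ratio of 2.65 (1.99 to 3.58). Ngp and Camp differed little, with ratios of 0.949 (0.921 to 0.979) and 1.11 (1.08 to 1.15), and the level of Cebpe had a ratio of 1.03 (0.81 to 1.32). Ltf was lower in the highest group, at 0.61 (0.571 to 0.652), and so was the granule collagenase Mmp8, at 0.198 (0.153 to 0.253). Chil3 reached 10 UMIs in 6 of 24, 6 of 24 and 18 of 23 barcodes.

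The late genes as a list were lower at a high cycle share, with a ratio of 0.525 (0.507 to 0.544). Stfa2l1, which is also in the stefin list, made up 14548 of the 19580 CPM of this list in S100-high barcodes. The list value therefore weighs that gene most. Retnlg was at 7148 CPM in the lowest group, 3087 in the middle and 836.8 in the highest, a ratio of 0.117 (0.104 to 0.132). Of the 26 barcodes with 10 or more Retnlg UMIs, 3 had a cycle share of 0.4% or more and 23 had less. Of the barcodes with fewer Retnlg UMIs, 21 had such a share and 24 had less. Mmp9 had a ratio of 0.232 (0.163 to 0.325), Cxcr2 of 0.317 (0.175 to 0.557) and Fpr1 of 0.0868 (0.0358 to 0.183). Of the surface receptors, Ly6g had a ratio of 0.19 (0.132 to 0.269) and Csf3r, the receptor of granulocyte colony-stimulating factor, one of 0.309 (0.135 to 0.665). Over all genes with at least 200 UMIs, 82 of 347 were 2-fold or more higher in the highest group (23.6%) and 22 were 2-fold or more lower (6.34%), and 3 of the 4 late genes among them were lower. Because Retnlg, Mmp8 and the others were seen to differ on the same barcodes that were ranked, these values are a description.

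**Figure D3:**
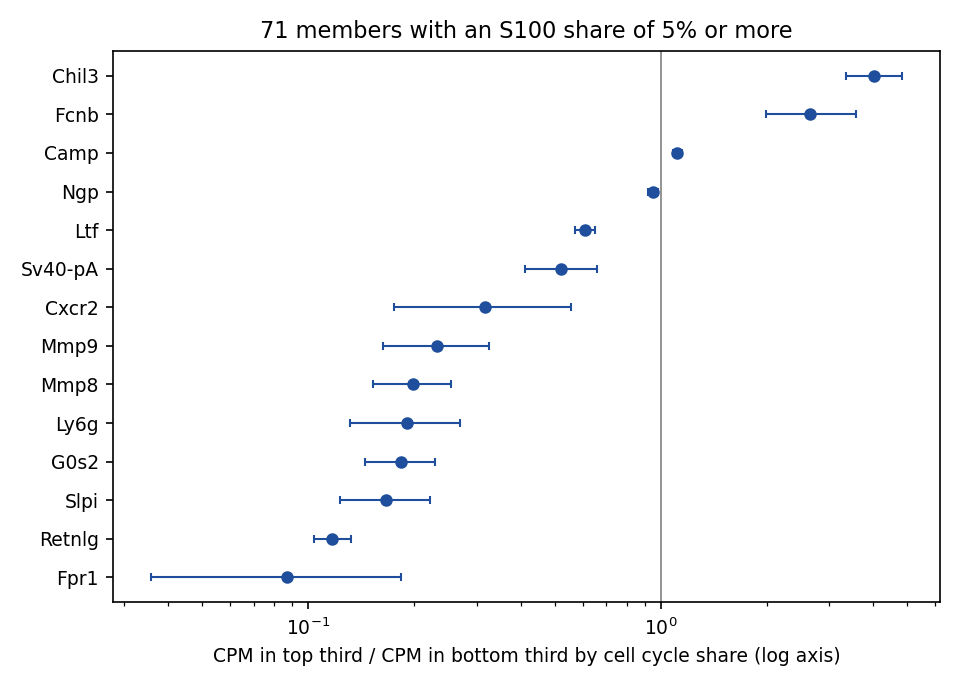
Ratio of CPM in the 23 S100-high barcodes with the highest cell cycle share to CPM in the 24 with the lowest (x axis, log axis) for named genes (y axis); bars are exact 95% intervals of counting error and the line marks a ratio of 1. Chil3 and Fcnb lie above 1, Ngp and Camp close to it, and the 8 genes from Cxcr2 to Fpr1 at 0.317 or below.

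Other values moved with this ranking. Hepatocyte genes had a ratio of 13.5 (8.85 to 21.8) between the groups, with 161 of their 641 UMIs in 1 barcode, and the part of joined cells was not tested. Of the 14 single-hashtag barcodes in the lowest group, 13 had the iSuRe-Cre liver hashtag. Within the 26 S100-high barcodes of that hashtag, ranked among themselves, Retnlg had a ratio of 0.105 (0.0807 to 0.135) and Chil3 of 3.96 (3.02 to 5.28). Fcnb did not keep its direction there, at 0.705 (0.456 to 1.09). Mmp8 was nearer to 1, at 0.58 (0.379 to 0.886), and the intervals of Mmp9 at 0.737 (0.393 to 1.39), Cxcr2 at 0.516 (0.177 to 1.45) and Fpr1 at 0.86 (0.262 to 3.01) included 1. Without the barcodes called doublets by their hashtags, 50 remained and the ratio was 0.0303 for Retnlg, 3.00 for Chil3 and 1.61 (1.16 to 2.27) for Fcnb.

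Over all 147 members, ranked in the same way into groups of 49, the genes outside the fixed lists with the highest ratio were H3c3 (53.1), Pclaf (37), H1f5 (33.4), H2ac8 (27.6) and H2ax (24). These are histone genes and a factor of replicating DNA, themselves known to follow the cell cycle. The lowest ratios were those of S100a6 (0.0991), Csta3 (0.133), Asprv1 (0.175), Csta2 (0.241) and Srgn (0.305). S100a6 is a calcium-binding protein, Csta2 and Csta3 are stefin family genes and Srgn encodes the granule proteoglycan serglycin. The late genes had a ratio of 0.433 (0.418 to 0.448) here, but the middle and highest groups of this ranking were largely S100-low, with median S100 shares of 2.55% and 2.95% against 23.0% in the lowest. Stfa2l1, at 0.636 (0.612 to 0.661), made up 10412 of the 14088 CPM of the late list over all members.

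A second ranking used the share of UMIs in Ltf, Lcn2, Chil3 and Hp, which leaves out the genes of the rule. Among the 71 S100-high barcodes, the 24 with the lowest share had 0.143% to 1.31% and the 23 with the highest 2.07% to 2.77%. From the lowest to the highest group, Ngp went from 11196 to 34732 CPM, a ratio of 3.10 (2.97 to 3.25), and Camp from 13824 to 35162, a ratio of 2.54 (2.44 to 2.65). The late genes as a list had a ratio of 1.38 (1.32 to 1.44), a sum led by Stfa2l1. Its members lay on both sides of 1, so that the list value gives no common direction. Mmp9 was at 2.22 (1.48 to 3.43), Fpr1 at 3.58 (1.73 to 8.35), Trem1 at 2.47 (1.23 to 5.36) and Stfa2l1 at 1.86 (1.76 to 1.97), whereas Retnlg went from 4513 to 2384 CPM, a ratio of 0.528 (0.478 to 0.584), and Il1b was at 0.314 (0.145 to 0.638). The G2 and M genes had a ratio of 0.477 (0.429 to 0.53). Of 347 genes, 28 were 2-fold or more higher (8.07%) and 126 lower (36.3%). The lowest group was shallow, with a median of 3491 gene UMIs and a median S100 share of 11.5%, and it held 586 of the hepatocyte UMIs against 19 in the highest group.

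Over all 147 members the same ranking mainly followed the S100 split. The median S100 share was 1.07% in the 49 barcodes with the lowest granule share, 4.20% in the middle and 25.6% in the highest. The late genes, a sum led by Stfa2l1, had a ratio of 19.4 (17.2 to 22) and the progenitor genes one of 0.0702 (0.0439 to 0.108). The G2 and M genes were at 2676 CPM in the lowest, 3519 in the middle and 3003 in the highest group. Their ratio was 1.12 (1.03 to 1.23), but 1.07 (0.977 to 1.18) without the 5% of members with the most UMIs and 0.904 from the mean of each barcode's CPM, so that no direction is given over all members.

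The genes most like Ngp across all members were Camp, the calgranulins and genes of the stefin cluster. Over the 147 members, and among 625 genes with at least 200 UMIs, the log-normalized level of Ngp followed that of Camp (Pearson r 0.940), S100a9 (0.915), S100a8 (0.894), Cstdc5 (0.888) and Stfa1 (0.879), and the same 4 genes beside Ngp led for Camp. Within the 71 S100-high barcodes and 351 genes, Ngp followed Camp (0.833), Lcn2 (0.800), Ltf (0.736), Anxa1 (0.717) and S100a9 (0.672). Camp followed Ngp, Lcn2 (0.653), Arhgdib (0.559), Ltf (0.557) and Chil3 (0.557). The barcodes share 1 library, and depth and free RNA differ among them, so these are descriptions without a test.

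Most S100-high barcodes with a single-hashtag call carried a liver hashtag. HTODemux, which calls each barcode a singlet, doublet or negative from its hashtag counts, gave 61 singlets, 45 doublets and 40 negatives among the members, and 1 barcode had too few hashtag UMIs to enter it. Of the 38 S100-high singlets 37 carried a liver hashtag, 97.4% (86.2 to 99.9). Of the 23 S100-low singlets 15 did, 65.2% (42.7 to 83.6), and of the 4798 other singlets 47.3% (45.9 to 48.7). S100-high barcodes were 26 of the 1222 iSuRe-Cre liver singlets (2.13%, 1.39 to 3.10), 7 of 487 in control liver (1.44%, 0.58 to 2.94) and 4 of 612 in iSuRe-HadCre liver (0.654%, 0.178 to 1.66). In heart they were 1 of 1189 in control, 0 of 721 in iSuRe-HadCre (0%, 0 to 0.510) and 0 of 628 in iSuRe-Cre (0%, 0 to 0.586). The intervals of control liver overlapped those of both other liver groups, and with 1 sample a group these shares carry no test between genotypes.

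**Figure D4:**
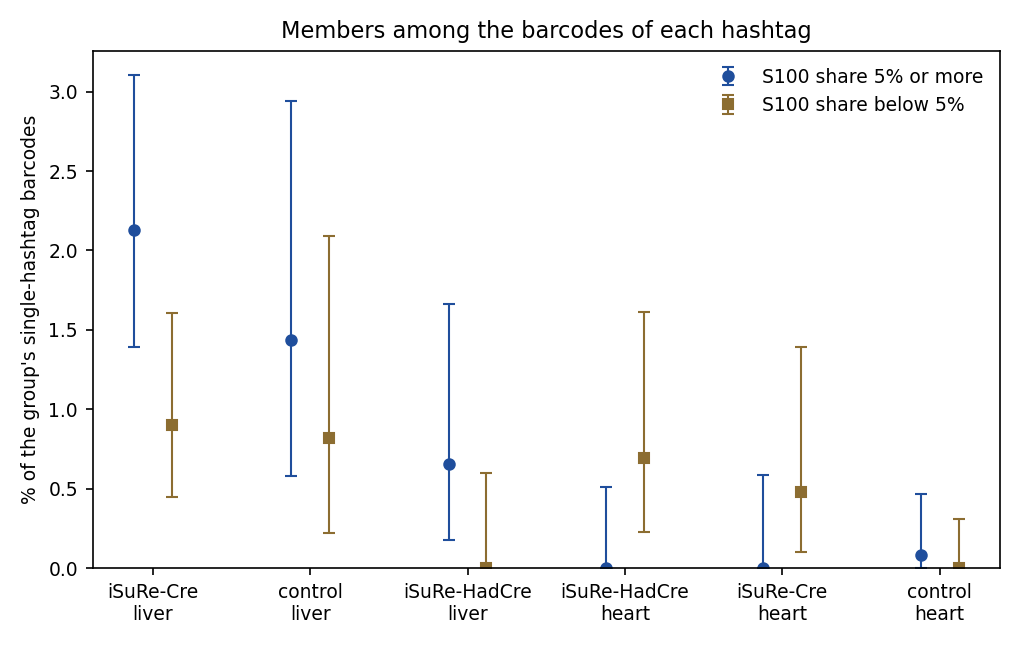
Percent of each group's single-hashtag barcodes (y axis) that were S100-high (circles) or S100-low (squares) members, by hashtag group (x axis); bars are exact 95% binomial intervals of counting error. S100-high members were 0.654% to 2.13% of the 3 liver groups and at most 0.0841% of the 3 heart groups, whereas S100-low members were found in 2 liver and 2 heart groups.

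The hashtag counts behind these calls were unequal. Over all passing barcodes the iSuRe-Cre liver hashtag had a median of 28 UMIs and the other hashtags 1 to 3. The S100-high barcodes called iSuRe-Cre liver had 95 to 6002 UMIs of their hashtag, with a median of 871.5, and those called iSuRe-HadCre liver a median of 354.5. Those called control liver had 5 to 20, with a median of 8, and the 1 in control heart had 4. The 7 control liver barcodes also held lower neutrophil levels, with S100a8 at 38299 CPM, Ngp at 11876 and Ltf at 1778. The 26 of iSuRe-Cre liver were at 120471, 26418 and 5896 CPM, and the 4 of iSuRe-HadCre liver at 151460, 33274 and 6262. Genotype, hashtag strength and barcode quality cannot be told apart here. Doublets were 29.6% (19.3 to 41.6) of the S100-high barcodes and 18.3% (17.7 to 19) of the other passing ones, and negatives 16.9% (9.05 to 27.7) and 47.8% (46.9 to 48.6).

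Reporter transcripts were low in the S100-high barcodes. WPRE, an element in the 3′ part of the reporter transcript, had 8 UMIs, which is 9.58 CPM (4.13 to 18.9), against 160.4 in free RNA and 314.5 in the 8152 other barcodes with Cdh5. Tomato had 1 UMI, against 30.3 CPM in free RNA and 64.2 in the Cdh5 barcodes. In the S100-low barcodes WPRE was at 129.1 CPM (94.9 to 171.7) and Tomato at 19.2 (7.73 to 39.6), intervals that reach the free RNA levels. None of the 26 S100-high barcodes of iSuRe-Cre liver held a WPRE or Tomato UMI, while the 1185 other singlets of that hashtag were at 93.3 and 23.5 CPM. Of the S100-high barcodes of control liver 3 of 7 held a WPRE UMI, 33.5 CPM (6.92 to 98), and of those of iSuRe-HadCre liver 1 of 4 did, 16.8 CPM (0.425 to 93.5). By the labels Tomato signal was used in the sort. Notch1 had 31 UMIs in 20 of 71 barcodes, 37.1 CPM, against 19.5 in free RNA, a ratio of 1.90 (1.03 to 3.61). The others were at 37.4 CPM, a mixture of groups. Their singlets ran from 16.3 CPM in iSuRe-Cre heart to 63.5 in control heart.

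The Sv40-pA sequence, a polyadenylation signal listed among the added transgene features, did not follow the reporter. It had 368 UMIs in 57 of the 71 S100-high barcodes, 440.5 CPM (396.6 to 487.9), which was 3.10 (2.54 to 3.82) times its level in free RNA and more than in the Cdh5 barcodes, at 99.9. Its counts ran from 0 to 23 with a median of 3. In the S100-low barcodes it was at 131.8 CPM (97.2 to 174.8), beside 142 in free RNA. In the 166 barcodes that met both minimums but held a Cdh5 UMI it was at 202.4 CPM (181.6 to 225), 1.43 (1.16 to 1.76) times free RNA. Other blood barcodes were lower, with 24.2 CPM in the Mpo and 57.8 in the C1qa barcodes. Thinned to 2000 UMIs, Sv40-pA was expected in 49.7% of S100-high and 10.1% of Alb-high barcodes, from 80.3% and 43.5% unthinned.

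By hashtag, Sv40-pA was at 574.9 CPM (490.5 to 669.6) in the S100-high barcodes of iSuRe-Cre liver, in 24 of 26, and at 637.9 (451.4 to 875.6) in those of iSuRe-HadCre liver, in 4 of 4. In control liver it had 4 UMIs in 3 of 7, 44.7 CPM (12.2 to 114.5), and in the 1 of control heart it had 0. The other singlets of the 6 hashtags were between 58 and 138.1 CPM. Among S100-high barcodes its ratio between the highest and the lowest group by cell cycle share was 0.521 (0.411 to 0.66). Of the 14 singlets in the lowest group 13 carried the iSuRe-Cre liver hashtag, and within that hashtag the ratio was 0.752 (0.515 to 1.10), an interval that includes 1. Which allele holds a sequence counted as Sv40-pA is not stated in the labels, and reads of an endogenous transcript that match the added sequence were not tested, since only counts were used.

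**Figure D5:**
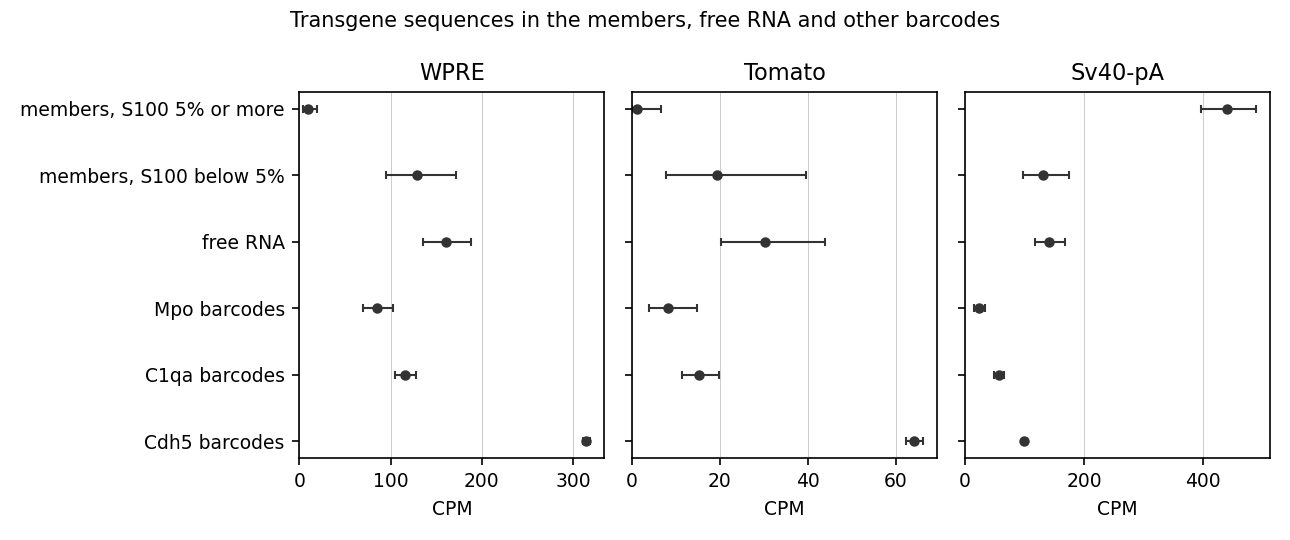
CPM (x axes, linear) of WPRE, Tomato and Sv40-pA in S100-high and S100-low members, free RNA and other barcodes chosen by Mpo, C1qa or Cdh5 (y axis); bars are exact 95% Poisson intervals of counting error. WPRE and Tomato are lowest in the S100-high members and highest in the Cdh5 barcodes, whereas Sv40-pA is highest in the S100-high members.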

How the data were processed

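1 10x Genomics library of hashtagged liver and heart cells was analysed. The submitters' processing notes name Cell Ranger 7.1.0, Seurat and the build GRCm38 (mm10). The deposited matrix holds the authors' raw UMI counts for every barcode, over 21951 features (genes with transgene sequences added) and 13 hashtag and multiplexing tags, without normalization or cell annotation. Only the 6 hashtags that the labels assign to groups were used in calls, and 7 tags have no group. UMIs were summed over barcodes and divided by their total to give CPM. No test was possible with 1 library. Intervals are exact Poisson, binomial or conditional 95% intervals and cover counting error only, and a level of 0 is said to allow up to 3 counts. The members' depth of 2028 to 73440 UMIs sets the precision, and genes with few UMIs are given as counts.

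A gene was counted as higher at 4-fold or more where it had at least 200 UMIs over all passing barcodes. To be counted as lower, its level in the others also had to predict at least 4 times 3 UMIs in the members. Ratios set counts below 3 to 3. Named were the genes of fixed lists, the 15 genes with the highest ratio, the 5 genes at each end of the cell cycle ranking outside the lists, and the 5 most correlated with Ngp and Camp. Ear2, Sox9, Ccl21a and the named Sv40-pA comparisons were picked out once their values were known. 1 item of a fixed list, and the values of that list as a whole, are not reported here. The members and lists were chosen with earlier results of these data known. Hashtags were called with HTODemux (Seurat 5.3.0, R 4.3.3, positive quantile 0.99) on barcodes with more than 4 hashtag UMIs, and no other doublet caller was run. Barcodes called doublet or negative stayed members. Thinned shares are the mean over all draws of 2000 UMIs. Log-normalized values entered the correlations. Python 3.11.15, numpy 2.4.6, pandas 2.3.3 and scipy 1.17.1 were used, and the sums, ratios and intervals were tested on simulated counts.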

Additional observations from a re-analysis of the deposited data

Results flagged for a closer look

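Tags that the labels give no group carried signal in the members. A multiplexing tag was the highest tag in 58.5% (50.1 to 66.6) of the 147 members, and in 26.8% (16.9 to 38.6) of the 71 S100-high ones. These counts lie outside the hashtags that were used for calls. In the S100-low members the share was 88.2% (78.7 to 94.4), and in the other passing barcodes 74% (73.3 to 74.7). The median was 48 multiplexing and 472 labelled hashtag UMIs in S100-high members, and 550.5 and 73 in S100-low members. Among S100-high members, the 20 whose highest tag had no group held Olfm4 at 1777 CPM (1611 to 1955), Retnlg at 1261 (1122 to 1412) and Sv40-pA at 249.6 (190 to 322). The 51 whose highest tag was a labelled hashtag held them at 552.5 (494.6 to 615.3), 3979 (3821 to 4142) and 515.8 (459.9 to 576.6) CPM. All 44 Il1b UMIs and all 48 Elane UMIs were in the latter, but Il1b was in 8 barcodes and 47 of the Elane UMIs were in 1. Of the Olfm4 UMIs of S100-high members, 75.5% were in 10 barcodes. These differences therefore rest on few barcodes. What these tags stand for is not given in the sources used here.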

How the results depend on the processing

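Over 18 alternatives, 77 of 157 recomputed values kept within their limits, 79 moved, 46 of them for single genes, and 1 changed direction. The ratios to the other barcodes of S100a8, S100a9, Ltf, Lcn2, Stfa1, Cebpe and Cybb stayed past 4-fold in 49 of 49, the lowest being 39.2. Their sizes moved, for Ltf from 212 to between 142 and 1525. These are neutrophil genes in barcodes chosen by Ngp and Camp, with reported ratios from 51.2 (Cybb) to 212 (Ltf). Staying past 4-fold therefore shows little. The number of members was 97 with a minimum of 10 UMIs each and 227 without the haemoglobin limit. Genes 4-fold or more lower in the members, 1199 as reported, were 2026 with that minimum, 513 from the mean of each barcode's CPM and 2978 with free RNA subtracted. The ratio of late genes, a sum led by Stfa2l1, along the cell cycle share over all members (0.433) was 0.379 without doublets, 0.336 from mean CPM and 0.498 with free RNA subtracted. Within S100-high members (0.525) it was 0.548 with the minimum of 10, 0.430 without doublets, 0.558 without the 5% of members with the most UMIs, 0.485 from mean CPM, 0.635 with free RNA subtracted and 0.499 after thinning. Chosen after seeing the data, an S100 limit of 10% gave 0.658 and barcodes of 5000 or more UMIs 0.554. The ratio of G2 and M genes along the granule share over all members (1.12) was 1.54 with a minimum of 3, 1.55 with 10, 1.25 without doublets and, on the other side of 1, 0.904 from mean CPM. The liver share of members (85.2%) was 95.3% with the minimum of 10, 73.3% at a positive quantile of 0.95, and 100% both of 52 members with 25 or more UMIs of a hashtag at 5 times its median and of 140 whose highest hashtag was 3 times the next. For S100-high members (97.4%) those 2 rules gave 100% of 48 and 100% of 68, and the quantile of 0.95 gave 89.3% (71.8 to 97.7), 25 of 28. Per passing barcode, the iSuRe-Cre liver hashtag had 28 UMIs at the median and the other hashtags 1 to 3. Background counts alone therefore favour a liver call under the rule of 3 times the next. Its values of 100% cannot show where the barcodes came from. WPRE in members (45.9 CPM) was 61.7 with a minimum of 3, 25.8 with 10, 91.6 from mean CPM and 15.7 with free RNA subtracted. In S100-high members (9.58 CPM) it was 30.7 from mean CPM, 0 with free RNA subtracted and, chosen after seeing the data, 24.2 at an S100 limit of 3% and 2.57 in barcodes of 5000 or more UMIs. The subtraction of free RNA used the summed hepatocyte estimate. Except where fewer barcodes or subtraction make the change by construction, the cause was not tested. No paired analysis was possible because no result comes from a test and the groups share 1 library. The depth of the S100-high members, 835461 UMIs, limits genes below about 3 UMIs.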
